A study of Mus musculus with 12 samples.

Results

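The genes that encode the inhibitors of the cyclin-dependent kinases (CDKs) were followed in mouse embryonic fibroblasts that carry or lack the long noncoding RNA lincRNA-p21. Their 7 gene names were looked up in the 2 deposited expression tables, and 6 of them, Cdkn1a, Cdkn1b, Cdkn1c, Cdkn2a, Cdkn2b and Cdkn2c, had a row in both (spelled CDKN1A, CDKN1B, CDKN1C, CDKN2A, CDKN2B and CDKN2C there), out of 11481 genes in all. Cdkn2d was not analysed here. The cells were primary cultures of hybrid 129/B6 background, either wild type (WT, lincRNA-p21+/+) or knockout (KO) for lincRNA-p21, and cultures of each genotype were mock treated or exposed to doxorubicin (dox) for 24 hours. The labels state the dose as 0.5 mM, a unit that is in doubt because micromolar doses are usual. Doxorubicin is an anthracycline that breaks DNA. The 4 groups were therefore WT mock, KO mock, WT dox and KO dox, with 3 biological replicates in each. The labels do not say which embryos or cultures the replicates came from, how the knockout allele was built, or the age of the embryos. The members were chosen by name, with earlier results of these data known. The title of the study names the question, which is whether lincRNA-p21 acts on Cdkn1a, its neighbour on chromosome 17, and on the G1/S checkpoint.

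A cell enters S phase when cyclin-bound CDKs phosphorylate the RB family of proteins and E2F transcription factors are released. CDK inhibitors block this step and fall into 2 families. The Cip/Kip proteins, p21 (Cdkn1a), p27 (Cdkn1b) and p57 (Cdkn1c), bind complexes of cyclin and CDK, whereas the INK4 proteins, p16 (Cdkn2a), p15 (Cdkn2b) and p18 (Cdkn2c), bind CDK4 and CDK6. Cdkn1a is the classical target of p53 among them, Cdkn1b is controlled to a large extent through the turnover of its protein, and Cdkn1c is imprinted. Cdkn2a also encodes p19ARF, which stabilises p53 by binding MDM2, and Cdkn2a and Cdkn2b are known to accumulate in fibroblasts kept in culture.

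Promoter sequences are shown for the Cip/Kip genes, in which the response to doxorubicin was seen, and are taken from RefSeq on GRCm38.p6. The RefSeq table held promoters of 6 of the 7 genes, and Cdkn1c was not among them. Each window is the 250 bases before an annotated start, and capitals mark a p53 full site, a GC box or a CCAAT box, searched on both strands. The GC box was taken as the letters GGGCGG. Cdkn1a has 2 annotated starts, with windows at chr17:29090729-29090978 and chr17:29093519-29093768 on the plus strand, and the window of Cdkn1b is chr6:134920151-134920400, also on the plus strand.
Cdkn1a, upstream start: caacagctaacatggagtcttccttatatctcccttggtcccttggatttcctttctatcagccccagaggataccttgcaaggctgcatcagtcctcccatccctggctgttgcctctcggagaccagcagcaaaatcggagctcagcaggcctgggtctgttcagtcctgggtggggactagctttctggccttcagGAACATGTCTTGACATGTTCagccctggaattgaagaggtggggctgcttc
Cdkn1a, downstream start: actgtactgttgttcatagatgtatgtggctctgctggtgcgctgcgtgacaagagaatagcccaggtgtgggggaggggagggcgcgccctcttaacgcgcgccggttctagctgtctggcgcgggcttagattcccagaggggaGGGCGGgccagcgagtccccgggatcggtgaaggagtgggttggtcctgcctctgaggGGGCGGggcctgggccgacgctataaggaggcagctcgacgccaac
Cdkn1b: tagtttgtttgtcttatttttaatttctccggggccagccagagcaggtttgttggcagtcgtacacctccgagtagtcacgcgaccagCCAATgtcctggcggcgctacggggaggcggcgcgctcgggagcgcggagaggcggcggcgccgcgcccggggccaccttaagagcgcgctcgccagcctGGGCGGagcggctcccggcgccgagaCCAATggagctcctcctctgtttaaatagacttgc
The capitals of the first window are a match to the p53 full site, which is a pair of p53 half-sites with no spacer, here with up to 1 mismatch. The site lay 51 to 32 bases before the upstream start. The downstream window held 2 GC boxes and no p53 site, and the Cdkn1b window held 1 GC box and 2 CCAAT boxes. Of 32851 promoter windows of this length, 32.7% held a GC box, 33.9% a CCAAT box, 7.13% a p53 half-site and 0.0761%, or 25 windows, a p53 full site. The search for the full site was added after the Cdkn1a sequence had been read, so the match is a description only.

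Of the 25 genes with such a window, 5 were measured in both tables. Their sites are shown because these genes can be compared with Cdkn1a in the same libraries, and capitals mark the bases that match the p53 site. They lie at chr17:29090928-29090947 (plus), chr11:40755462-40755481 (minus), chr9:66946296-66946315 (plus), chr12:76255090-76255109 (plus) and chr19:47138451-47138470 (minus), in the order given.
Cdkn1a: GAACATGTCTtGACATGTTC
Ccng1: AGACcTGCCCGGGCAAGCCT
Rps27l: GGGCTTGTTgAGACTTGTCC
Mthfd1: AAACTTGCTCAGACAgGCCC
Calhm2: GGGCAAGCCTAGGCAAGaTC
Cdkn1a, whose sequence was read before the search was added, rose with doxorubicin in both genotypes (limma, adjusted p of at most 0.05). So did Ccng1, Rps27l, Mthfd1 and Calhm2. These rises are a description, and the part of the site in them was not tested. Ccng1, which encodes cyclin G1, rose by 0.84 in WT and 0.89 in KO on the log2 scale, and Rps27l by 0.69 and 0.62. Mthfd1 rose by 1.48 and 0.87 and Calhm2 by 0.92 and 0.76. Among all 10292 genes measured in both tables, 25.9% rose in WT and 19.9% in KO.

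Levels were compared between genes as CPM (reads scaled to the library total) per kilobase of merged exon. Cdkn1a had the highest mean in 3 of the 4 groups. In WT mock cells it was at 159 ± 15.4 CPM per kb (SD, n = 3), ahead of Cdkn2a at 122 ± 64.6 and Cdkn2b at 77.6 ± 9.25. The ranges of Cdkn1a and Cdkn2a overlapped there, as did those of Cdkn2a and Cdkn2b. Cdkn1c (9.29 ± 4.32 CPM per kb), Cdkn1b (7.63 ± 1.48) and Cdkn2c (3.99 ± 0.428) were far lower, and the first 2 of these overlapped. In KO mock cells Cdkn2a stood first in mean at 120 ± 64.6 CPM per kb and Cdkn1a second at 88.6 ± 10.7, with overlapping ranges. After doxorubicin Cdkn1a led without overlap in both genotypes, at 355 ± 49.3 CPM per kb in WT and 303 ± 6.17 in KO, and the lowest mean was that of Cdkn1b in WT (3.63 ± 1.09) and of Cdkn2c in KO (4.24 ± 1.23). Those neighbours in the order, Cdkn1b and Cdkn2c, overlapped in both genotypes after doxorubicin. Exon lengths are from GENCODE M21, a later annotation than the assembly the submitters name.

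**Figure D1:**
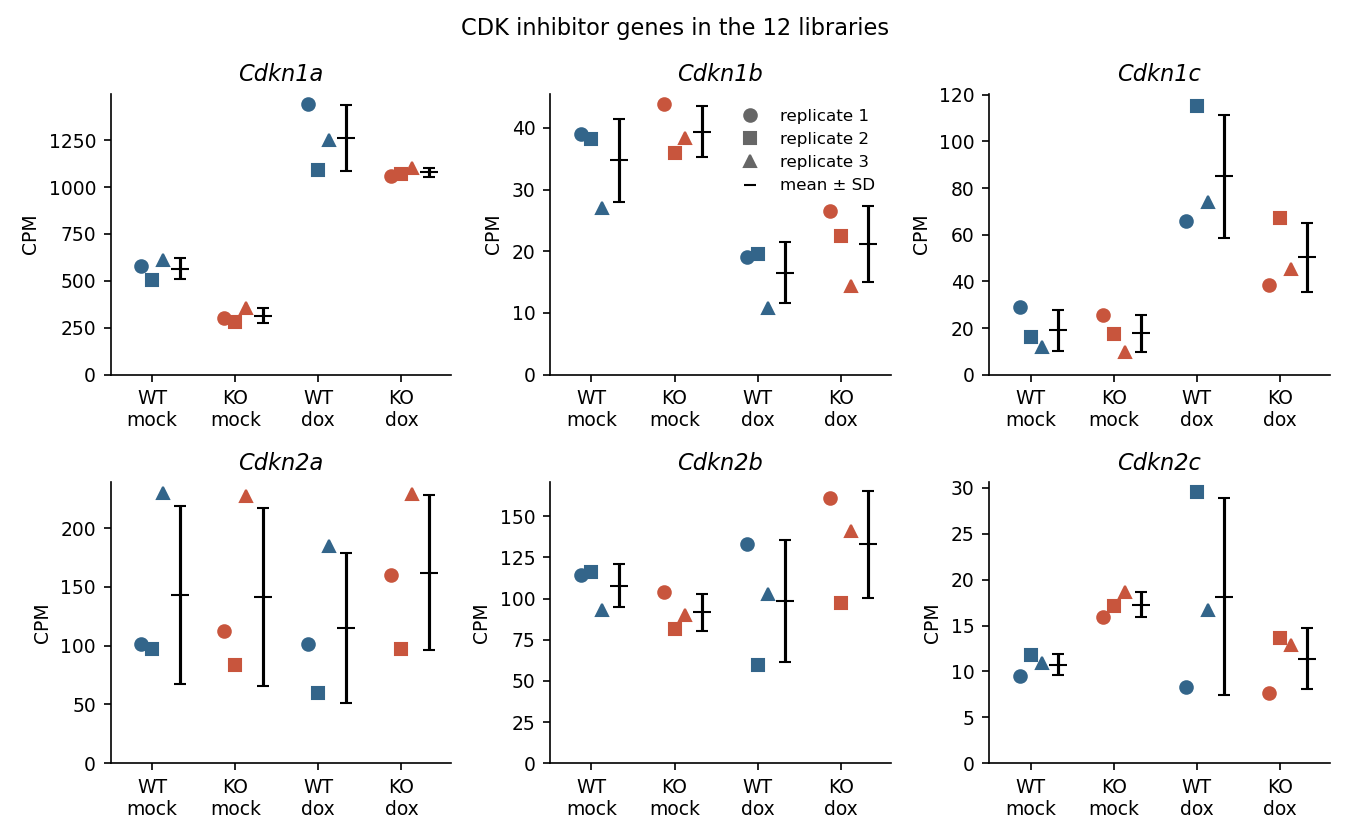
The 6 CDK inhibitor genes in the 12 libraries, as CPM on linear axes from 0, with marker shape for the replicate number and a bar for the mean ± SD of 3 libraries. Cdkn1a and Cdkn1c lie higher and Cdkn1b lower in all dox libraries than in all mock libraries of the same genotype, whereas Cdkn2a follows the replicate number, with replicate 3 on top in each group. Dox and mock groups were free of overlap for 54.8% of all genes in WT and 48.6% in KO.

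Library totals ran from 14327048 to 20511907 reads. Among the 6 genes the lowest value was 7.61 CPM, for Cdkn2c in a KO dox library. All listed genes lay above 2 CPM in the WT libraries of their table, while 164 genes in mock and 313 in dox fell to 2 CPM or less in some KO library, so the listing favoured genes present in WT. Fibroblast markers were high, with 11 of 12 measured and a summed level of 48722 to 69406 CPM in mock and 30313 to 42009 CPM in dox libraries. Of the other types' markers, 1 of 7 epithelial (Krt18), 2 of 6 endothelial, 1 of 6 blood, 2 of 5 muscle and 3 of 5 neural genes were measured in both tables, without Epcam, Pecam1 or Ptprc. The blood genes (Cd68, and in dox also Cd14) summed to 2.42 to 58.3 CPM in mock and 69.0 to 157 CPM in dox libraries, and the endothelial genes (Kdr and Eng, and in dox also Vwf) to 18.7 to 48.4 and 58.5 to 104 CPM. The muscle genes (Des and Acta1) summed to 75.9 to 434 CPM in WT mock, 30.9 to 182 CPM in KO mock, 44.6 to 204 CPM in WT dox and 22.6 to 52.6 CPM in KO dox. The neural genes (Tubb3, Nes and Mtap2) summed to 230 to 461 CPM in WT mock, 284 to 532 CPM in KO mock, 452 to 634 CPM in WT dox and 414 to 582 CPM in KO dox, and Krt18 was at 0.958 to 24.8 CPM over all libraries. The part of such cells in the results was not tested. The library of WT dox replicate 2 stood apart in proliferation genes. Its 20 measured S-phase genes summed to 1038 CPM, against 435 and 473 CPM in the other WT dox libraries and 387 to 564 CPM in KO dox, and its Mki67, a marker of cycling cells, was at 54.4 CPM against 8.05 and 14.5. Replicate 2 was the highest library of its group in both measures in all 4 groups, including KO dox, where Mki67 was at 18.99 CPM against 6.72 and 7.15. Because lincRNA-p21 was not analysed here, the knockout could not be checked on its own transcript.

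Cdkn1a rose with doxorubicin in both genotypes, and it had the largest genotype difference of the 6 genes in mock cells, where KO was lower. The WT mock libraries were at 578, 506 and 613 CPM and those of KO mock at 304, 283 and 357 CPM. After doxorubicin they were at 1440, 1091 and 1248 CPM for WT and at 1059, 1072 and 1102 CPM for KO. Every dox library lay above every mock library of either genotype, and every KO mock library lay below every WT mock library, while the dox groups overlapped. Dox and mock groups free of overlap were found for 54.8% of genes in WT and 48.6% in KO. In bulk RNA, a lower level in all cells and fewer cells that express a gene cannot be told apart.

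With doxorubicin Cdkn1a rose by 1.15 on the log2(CPM + 1) scale in WT (SE 0.13, limma, adjusted p = 6.93e-05) and by 1.78 in KO (SE 0.13, adjusted p = 1.99e-05). Of all genes, 47.3% were called in WT and 34.5% in KO, a call being an adjusted p of at most 0.05, and 1.75% of genes had a more positive difference than Cdkn1a in KO, against 8.61% in WT. Between same-numbered libraries, the ratio of dox to mock was 2.49, 2.16 and 2.04 in WT and 3.48, 3.79 and 3.09 in KO. The test of the difference in response between genotypes, the interaction of genotype and treatment, gave 0.63 (SE 0.18, 95% interval 0.23 to 1.03, not adjusted for the number of genes). It did not pass over all genes (adjusted p = 0.922 without and 0.196 with the replicate block), where 0% of 10292 genes were called in either fit and 468 and 1610 had an unadjusted p under 0.05.

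The mock means of Cdkn1a were 566 ± 54.7 CPM for WT and 315 ± 38.1 CPM for KO (SD, n = 3 each). The KO to WT ratio was 0.527, 0.559 and 0.582 in the 3 same-numbered pairs. The log2 difference was -0.85 (SE 0.12, 95% interval -1.14 to -0.55), and 0.423% of the 10648 genes of the mock table had a more negative one. It missed the threshold when no block was used (limma, adjusted p = 0.395), as did every other gene (0% called), with 440 genes at an unadjusted p under 0.05. Cdkn1a passed with the block (SE 0.052, adjusted p = 0.0223), where 0.92% of all genes were called and 0.357% of all genes were called lower in KO. That call was lost without pair 1 (-0.81, adjusted p = 0.0834) or pair 2 (-0.85, adjusted p = 0.175). Groups that did not overlap, with KO lower, were found for 1.74% of genes.

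With doxorubicin the means of Cdkn1a were 1260 ± 175 CPM for WT and 1078 ± 21.9 CPM for KO. The ratios within pairs were 0.736, 0.982 and 0.883, all nearer to 1 than any mock ratio. The log2 difference of -0.22 (SE 0.15, 95% interval -0.56 to 0.12) did not pass without the block (adjusted p = 0.513) or with it (0.143). The KO libraries spanned 1059 to 1102 CPM and the WT libraries 1091 to 1440 CPM, so a single WT library, replicate 2, lay within the KO range. Without that library the difference was -0.32 (adjusted p = 0.619), and the rise of Cdkn1a in WT was 1.25. A gene on the opposite strand, AC167363.2, overlaps Cdkn1a in GENCODE M21. Whether the counting used strand is not given in the sources used here, so reads of the 2 genes cannot be told apart.

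Cdkn1b, which encodes p27, went the other way from Cdkn1a after doxorubicin. Its mock levels were 39.0, 38.2 and 27.0 CPM for WT and 43.9, 35.9 and 38.4 CPM for KO. After doxorubicin they were 19.2, 19.5 and 10.8 CPM for WT and 26.5, 22.5 and 14.4 CPM for KO. No dox library reached the lowest mock library of either genotype, and replicate 3 was the lowest of its group in 3 of 4 groups. Dox and mock groups of a genotype were free of overlap for 54.8% of all genes in WT and 48.6% in KO. Cdkn1b fell by 1.06 on the log2 scale in WT (SE 0.26, limma, adjusted p = 0.00644, and -1.19 without WT dox replicate 2) and fell by 0.90 in KO (SE 0.26, adjusted p = 0.0199). The KO call was lost without KO mock replicate 1 (-0.82, adjusted p = 0.0675) or KO dox replicate 3 (-0.66, adjusted p = 0.0817). The KO to WT difference did not pass at 0.19 in mock (95% interval -0.21 to 0.59, adjusted p = 0.978, and 0.366 with the block). Nor did it pass at 0.34 in dox (-0.36 to 1.05, adjusted p = 0.599), where the blocked interval, not adjusted for the number of genes, was 0.08 to 0.61 (adjusted p = 0.0637). In dox the KO library was the higher one in 3 of 3 pairs, a direction shared by 34.2% of genes.

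Cdkn1c, which encodes p57, had the largest log2 change with doxorubicin of the 6 genes in WT cells. Its levels in mock cells were 28.8, 16.1 and 11.9 CPM for WT and 25.7, 17.6 and 9.81 CPM for KO, with replicate 1 highest and replicate 3 lowest in both genotypes. After doxorubicin the 3 values were 65.9, 115 and 73.9 CPM for WT and 38.5, 67.0 and 45.5 CPM for KO, with replicate 2 highest and replicate 1 lowest in both. All dox libraries lay above all mock libraries of both genotypes. Within a genotype, dox and mock groups were free of overlap for 54.8% of genes in WT and 48.6% in KO. Cdkn1c rose by 2.16 in WT (SE 0.38, limma, adjusted p = 0.000916) and by 1.51 in KO (SE 0.38, adjusted p = 0.0104), and without WT dox replicate 2 the WT rise was 1.92. The interaction was -0.64 (SE 0.54, 95% interval -1.82 to 0.54) and did not pass (adjusted p = 0.922, and 0.495 with the block).

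Between genotypes, Cdkn1c was close in mock cells and lower in the KO library of each pair in dox, and the interaction that tests this contrast did not pass. In mock cells the means were 18.9 ± 8.81 CPM for WT and 17.7 ± 7.96 CPM for KO, a log2 difference of -0.10 (95% interval -1.10 to 0.91). After doxorubicin they were 85.0 ± 26.5 and 50.3 ± 14.9 CPM, and the KO to WT ratios within pairs were 0.584, 0.581 and 0.615. These 3 ratios were close to each other although the levels of the pairs differed. The log2 difference of -0.74 (SE 0.27) fell short without the block (limma, adjusted p = 0.443), where 0% of 11125 genes passed and 1246 had an unadjusted p under 0.05. It passed with the block (SE 0.076, adjusted p = 0.0044), where 25.3% of all genes were called and 13.6% of all genes were called lower in KO. The call with the block held when each pair was left out, at -0.77 to -0.72. Without WT dox replicate 2, which had the highest Cdkn1c and the high proliferation genes, the difference without the block was -0.50 (adjusted p = 0.619), and the part of proliferation in it was not tested. Gm44732 overlaps Cdkn1c on the opposite strand in GENCODE M21, with the same limit as for Cdkn1a.

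**Figure D2:**
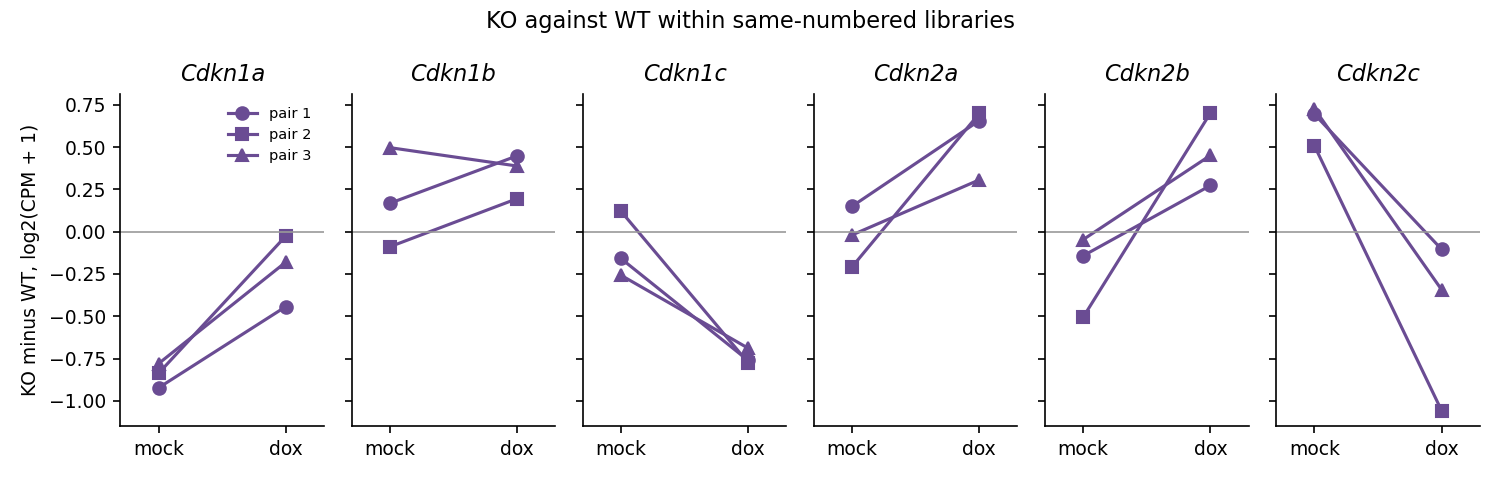
Differences between KO and WT libraries of the same replicate number, in log2(CPM + 1), for mock and dox, with 1 line per pair. Cdkn1a lies lowest in mock and nearer to 0 in dox, and Cdkn1c is near 0 in mock and between -0.77 and -0.69 in dox. Cdkn2c is above 0 in mock and below 0 in dox in all 3 pairs, and its interaction did not pass. In dox all 3 pairs moved one way for 61.8% of all genes.

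Cdkn2a, the INK4 gene with the highest level, followed the replicate number more than genotype or treatment. Its mock levels were 101, 97.1 and 230 CPM for WT and 112, 83.9 and 227 CPM for KO. With doxorubicin it was at 101, 59.4 and 185 CPM for WT and at 160, 97.1 and 229 CPM for KO. Replicate 3 was the highest and replicate 2 the lowest library in 4 of 4 groups, with means over the groups of 119, 84.4 and 218 CPM for replicates 1, 2 and 3. The replicate number took 85.1% of the sum of squares of Cdkn2a over the 12 libraries, and 1.03% of genes had a larger share. What a replicate number stands for is not in the labels. The counts are per gene and do not separate the transcripts of p16 and p19ARF.

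Cdkn2a did not pass without the block in any comparison. The difference of dox from mock was -0.34 in WT (95% interval -1.43 to 0.76, limma, adjusted p = 0.603) and 0.24 in KO (-0.85 to 1.34, adjusted p = 0.739). With the replicate block the WT difference passed (adjusted p = 0.0459, 63.7% of all genes called), but not with a separate block for each genotype (0.0665, 60.3% called). In mock cells the genotype difference was -0.03 (95% interval -1.14 to 1.09). After doxorubicin KO stood above WT in all 3 pairs, at ratios of 1.58, 1.63 and 1.24, a direction that 34.2% of genes shared. That difference of 0.55 did not pass without the block (SE 0.44, adjusted p = 0.568), and passed with it (SE 0.094, adjusted p = 0.0101), where 11.8% of all genes were called higher in KO. It was lost without pair 1 (0.50, adjusted p = 0.0647).

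Cdkn2b, which lies beside Cdkn2a on chromosome 4 and encodes p15, had mock levels of 115, 116 and 93.05 CPM for WT and of 104, 81.4 and 90.0 CPM for KO. With doxorubicin it was at 133, 59.5 and 103 CPM for WT and at 161, 97.3 and 141 CPM for KO. Replicate 2 was the lowest library of its group in 3 of 4 groups. Dox and mock differed by -0.20 in WT (95% interval -0.78 to 0.38, limma, adjusted p = 0.558) and by 0.51 in KO (-0.07 to 1.09, adjusted p = 0.157). The KO difference passed with the replicate block (adjusted p = 0.0412, 53.7% of all genes called), but not with a separate block for each genotype (0.0719, 48.8% called). After doxorubicin the KO to WT ratios were 1.21, 1.64 and 1.37. That difference of 0.47 passed with the block (SE 0.095, adjusted p = 0.0156) and not without it (SE 0.31, adjusted p = 0.503). In mock cells the KO library was the lower one in all 3 pairs, at ratios of 0.905, 0.702 and 0.968, a direction that 11.9% of genes shared, and the difference of -0.23 did not pass (adjusted p = 0.978, and 0.223 with the block). The interaction of 0.71 (95% interval -0.11 to 1.52) did not pass (adjusted p = 0.922, and 0.271 with the block).

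The WT dox replicate 2 library had the lowest Cdkn2a and the lowest Cdkn2b of all 12 libraries. Without it, the KO to WT difference in dox was 0.16 for Cdkn2a and 0.15 for Cdkn2b (limma without the block, adjusted p = 0.888 and 0.803), and the WT response to doxorubicin was 0.06 and 0.12. With the block and without pair 2 the KO to WT differences were 0.48 (adjusted p = 0.0168) and 0.36 (adjusted p = 0.0198). The high proliferation genes of that library moved with these low values, and their part in them was not tested.

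Cdkn2c, which encodes p18, had the lowest mean of the 6 genes in mock cells of each genotype. In KO mock its range lay within that of Cdkn1c, at 9.81 to 25.7 CPM. The genotype difference of Cdkn2c in mock had the opposite sign to that of Cdkn1a. Its mock levels were 9.49, 11.8 and 10.9 CPM for WT and 16.0, 17.2 and 18.7 CPM for KO. With doxorubicin it was at 8.26, 29.5 and 16.6 CPM for WT and at 7.61, 13.7 and 12.9 CPM for KO. Every KO mock library lay above every WT mock library and above every KO dox library, while the WT dox libraries spread over both. Dox and mock groups free of overlap were found for 48.6% of genes in KO. Replicate 1 was the lowest library in 4 of 4 groups.

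In mock cells the KO to WT ratios of Cdkn2c were 1.68, 1.46 and 1.72, and 0.920% of genes had a more positive difference than its 0.64 (SE 0.13). Without the block the difference did not pass (limma, adjusted p = 0.779). With the block it passed (SE 0.087, adjusted p = 0.0489), beside 0.563% of all genes called higher in KO. It was lost without pair 1 (adjusted p = 0.241) or pair 2 (0.239). Groups that did not overlap with KO higher were found for 8.25% of genes. In mock cells the 23 measured S-phase genes were also all above WT in KO, with a median difference of 0.30 against 0.06 over all genes and 0 of 23 called with or without the block, and their part in the Cdkn2c difference was not tested.

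After doxorubicin the KO to WT ratios of Cdkn2c were 0.922, 0.463 and 0.776, and the difference of -0.50 did not pass (95% interval -1.51 to 0.51, limma, adjusted p = 0.594, and 0.0908 with the block). Dox and mock differed by 0.55 in WT (adjusted p = 0.221) and by -0.60 in KO (adjusted p = 0.213). The WT difference passed without WT dox replicate 1 (0.99, adjusted p = 0.0134). The interaction was -1.14 (SE 0.50, 95% interval -2.24 to -0.05), and 0.583% of genes had a more negative one. It did not pass over all genes (adjusted p = 0.922, and 0.232 with the block). WT dox replicate 2, with the high proliferation genes, had the highest Cdkn2c of all libraries. Without it the interaction was -0.73 (adjusted p = 0.994), the WT response 0.13 and the KO to WT difference in dox -0.08.

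**Figure D3:**
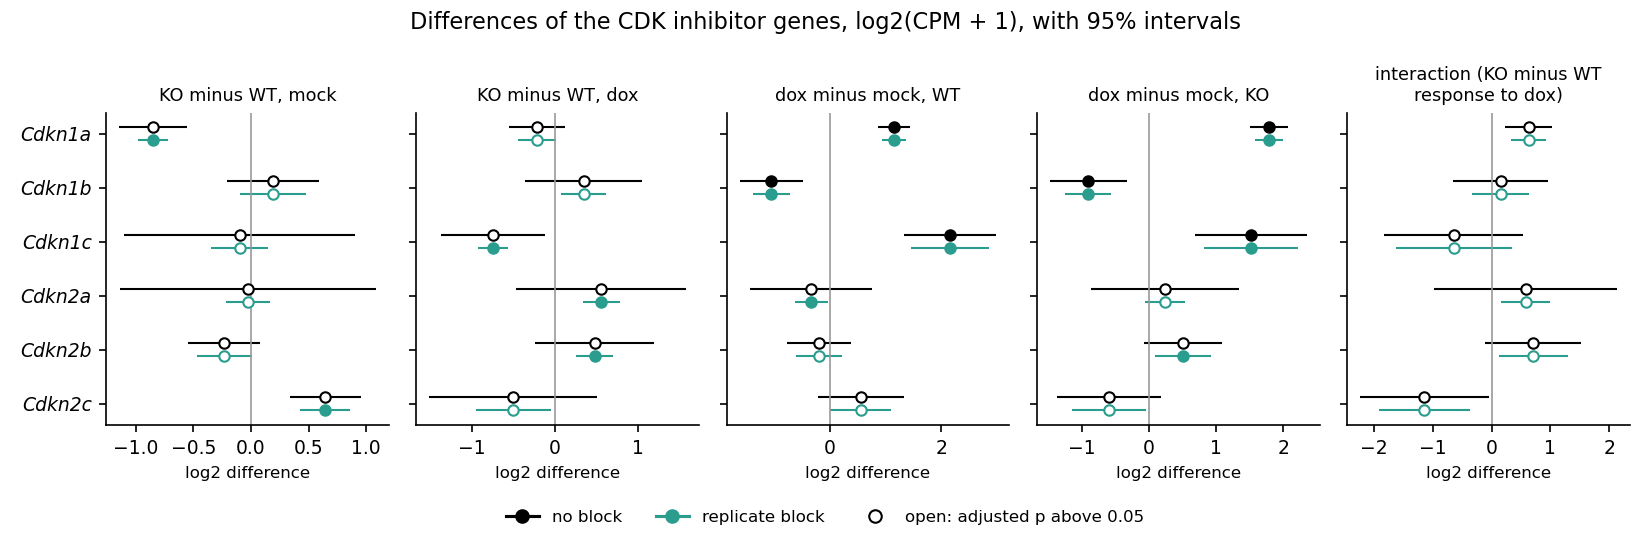
Log2 differences of the 6 genes in 5 comparisons with 95% intervals that are not adjusted for the number of genes, without a block (black) and with the replicate number as a block (green), filled where the adjusted p was at most 0.05. Without the block, filled points are seen for Cdkn1a, Cdkn1b and Cdkn1c in the 2 dox against mock panels and nowhere else.

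Over the 6 genes together, the response to doxorubicin without the block called 2 higher (Cdkn1a and Cdkn1c) and 1 lower (Cdkn1b) in each genotype, against 25.9% higher and 21.4% lower of all genes in WT and 19.9% and 14.6% in KO. With median centring of the libraries, the median of all genes moved from 0.01 to -0.10 in WT. The calls were then 2202 higher and 2944 lower in WT, instead of 2664 and 2199, and 1669 and 2027 in KO, instead of 2052 and 1500. The calls among the 6 genes kept their number and their directions under that setting. Between genotypes after doxorubicin, all 6 genes moved one way in 3 of 3 pairs, which held for 61.8% of all genes. Cdkn1a, Cdkn1c and Cdkn2c were lower and Cdkn1b, Cdkn2a and Cdkn2b higher in KO, and the groups of none of the 6 were free of overlap (16.3% of all genes).

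Treatment, averaged over both genotypes, made up most of the variation of the Cip/Kip genes and little of that of the INK4 genes. It took 82.9% of the sum of squares of Cdkn1a, 70.1% of Cdkn1b and 76.3% of Cdkn1c, against 0.149% of Cdkn2a, 4.55% of Cdkn2b and 0.055% of Cdkn2c, and a median of 46.2% over all genes. Genotype took 10.9% of Cdkn1a and 0.52 to 5.22% of the other 5 genes. The interaction took 23.7% of Cdkn2b and 33.8% of Cdkn2c, against a median of 2.23% over all genes. Differences of dox from mock with opposite signs in WT and KO enter the interaction share and not that of treatment. Such were those of Cdkn2b (-0.20 and 0.51) and Cdkn2c (0.55 and -0.60), which did not pass without the block. The replicate number took 38.2% of Cdkn2b and 37.4% of Cdkn2c, and 1.3% of Cdkn1a.

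**Figure D4:**
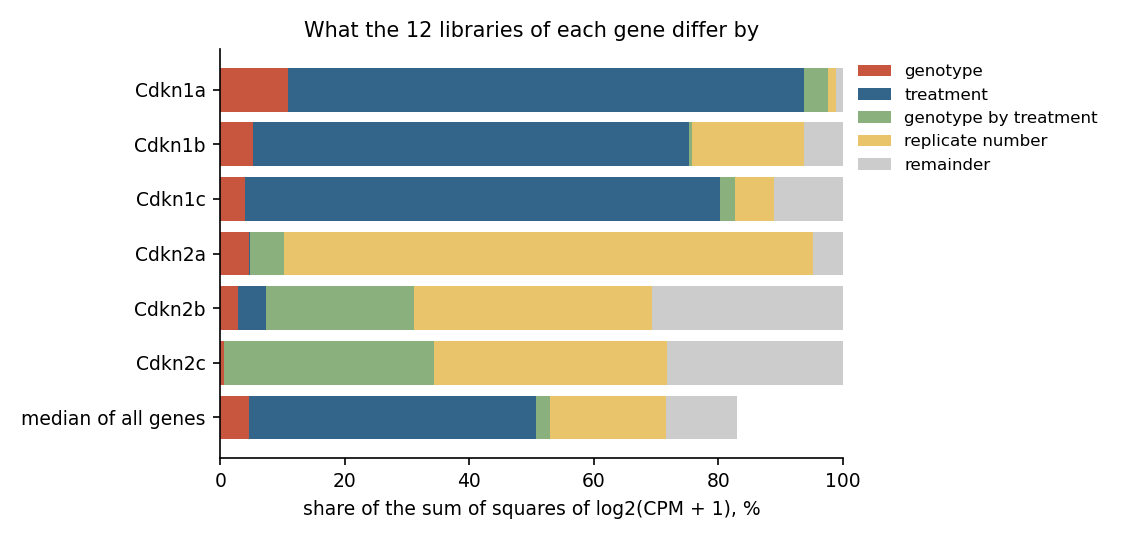
Share of the sum of squares of log2(CPM + 1) over the 12 libraries, in percent, by genotype, treatment, their interaction, replicate number and remainder, for each gene, with the median of each share over all genes in the last bar, which therefore does not add to 100. Treatment (dark blue) fills most of the bars of Cdkn1a, Cdkn1b and Cdkn1c, and replicate number (yellow) that of Cdkn2a at 85.1%.

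Genes with the most similar pattern were ranked by the root mean square difference of centred log2(CPM + 1) over the 12 libraries. For Cdkn1a these were Arhgap27 (0.186), Tcn2 (0.241), Rnase4 (0.257), Sema3c (0.263) and 2610019F03Rik (0.283), where the median over all genes was 0.841. Arhgap27 went from 8.40 CPM in WT mock to 5.23 in KO mock and from 24.0 in WT dox to 18.6 in KO dox. The nearest to Cdkn1b were Ipp (0.108), Klf12 (0.118) and Anp32a (0.131), against a median of 0.631. The nearest to Cdkn1c were Glul, which encodes glutamine synthetase (0.229), Otud1 (0.260) and AC123925.1 (0.269), against 1.07. Glul was at 33.3 CPM in WT mock, 35.9 in KO mock, 175 in WT dox and 106 in KO dox. Cdkn2a was nearest to Adra1d (0.163), Mdm4-ps (0.193) and Mdm4 (0.234), against 0.704, and since reads can be shared between Mdm4 and its pseudogene, those 2 values are uncertain. For Cdkn2b, Bphl (0.180), Nacad (0.180) and Slc25a22 (0.184) were nearest (median 0.473), and for Cdkn2c, Pde3b (0.245), Slc16a1 (0.245) and H1fx (0.251) (median 0.605).

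Of the genes whose proteins the CDK inhibitors act on, more fell than rose with doxorubicin. Of 11 measured cyclin and CDK genes, 0 were called higher and 6 lower in WT, with a median of -0.67, and 1 higher and 6 lower in KO, with a median of -0.83. The medians over all genes were 0.01 and 0.04, and of all genes 21.4% were called lower in WT and 14.6% in KO. In either direction, 54.5% of the list was called in WT, against 47.3% of all genes, and 63.6% in KO, against 34.5%. Cdk1, the mitotic kinase, fell in WT (log2 -2.11) and KO (-2.82), as did Cdk2 (-1.20 and -0.96). Cdk4, a target of the INK4 proteins, fell as well (-0.96 and -0.63), from 330 ± 1.48 to 172 ± 34.0 CPM in WT and from 372 ± 10.3 to 242 ± 43.2 CPM in KO. Cdk6, the other INK4 target, differed by -0.26 and -0.29 and did not pass (limma, adjusted p = 0.343 and 0.322). Ccnd1, which encodes cyclin D1, was the called gene that rose in KO (1.23, adjusted p = 0.00197), and in WT it differed by 0.41 (adjusted p = 0.156). Its dox means were 382 ± 84.1 CPM for WT and 752 ± 39.5 CPM for KO, a difference of 1.00 that passed with the block (adjusted p = 0.0044) and not without it (0.381).

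Downstream of the kinases, 2 of the 3 genes of the RB family, Rb1 and Rbl2, rose in both genotypes, and the other, Rbl1, fell (-0.48 in WT and -1.03 in KO). Rb1 rose by 2.32 in WT, from 25.3 ± 2.94 to 131 ± 27.4 CPM, and by 1.64 in KO, from 33.0 ± 3.13 to 105 ± 4.49 CPM, and Rbl2 rose by 1.57 and 1.04. Of 11 RB family and E2F genes, 3 rose and 2 fell in WT, and 2 rose and 3 fell in KO. That is 45.5% of the list called in each genotype, against 47.3% of all genes in WT and 34.5% in KO, so the WT count is near the background. Of 20 S-phase genes that E2F factors activate, 2 rose and 14 fell in WT (median -1.53), and 0 rose and 17 fell in KO (median -1.61), beside 21.4% and 14.6% of all genes called lower. Uhrf1, which helps to maintain DNA methylation, fell (-2.79 and -2.82), as did Mki67 (-2.31 and -3.61). The interaction of all 20 was below 0, with a median of -0.49 and 0 of 20 called, and the WT dox replicate 2 library with its high S-phase sum enters that value. The listing enters it too, since 23 genes of this list had a row in mock and 20 in dox. All genes of the dox table lay above 2 CPM in the WT libraries, while genes low in KO were kept. The part of that selection was not tested.

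The list of regulators that act on CDK inhibitor transcription had 26 measured genes, of which 11 rose and 2 fell in WT and 7 rose and 2 fell in KO. The called share of 50% in WT and 34.6% in KO was near that of all genes, 47.3% and 34.5%. Foxo3, a forkhead factor known to activate Cdkn1b, rose by 1.23 and 0.83, while Cdkn1b itself fell. Id1 rose by 1.86 and 2.06, and Trp53, which encodes p53, by 1.17 and 0.61. Ezh2, the Polycomb methyltransferase, fell in KO (-1.04) and differed by -0.51 in WT. With a separate block for each genotype its WT difference passed (limma, adjusted p = 0.0181, 60.3% of all genes called). The interaction of Ezh2 did not pass in that fit (adjusted p = 0.41). Of 10 genes for the turnover of the inhibitor proteins, 2 rose and 4 fell in WT and 1 rose and 5 fell in KO, which is 60% of the list in each, against 47.3% and 34.5% of all genes. Skp2, the F-box protein that targets p27 for degradation, fell (-1.45 and -1.11), as did its cofactor Cks1b (-1.55 and -1.53). Skp2 went from 23.5 ± 3.80 to 8.08 ± 2.34 CPM in WT, in the same libraries in which the Cdkn1b transcript fell.

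Of 26 other p53 targets, 21 rose and 0 fell in WT, with a median of 0.85, and 20 rose and 0 fell in KO, with a median of 0.84, beside 25.9% and 19.9% of all genes called higher. Mdm2, the ubiquitin ligase of p53, rose by 1.79 and 1.89, and Perp by 4.92 and 3.88. The mock means of Mdm2 were 252 ± 20.8 CPM (WT) and 251 ± 33.7 CPM (KO), a difference of -0.01 (limma, adjusted p = 0.997), where Cdkn1a differed by -0.85. In that mock comparison 0 genes of the 6 pathway lists passed with or without the block, and the other p53 targets had a median of 0.14.

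After doxorubicin, KO against WT with the block, the cyclin and CDK list had 2 genes called higher and 3 lower, the RB and E2F list 0 and 3, the regulators 4 and 1, the turnover list 4 and 2, the S-phase list 1 and 5 and the other p53 targets 3 and 2. Without the block 0 of these genes passed (limma). In the fit with the block, 11.8% of all genes were called higher and 13.6% lower, or 25.3% in either direction. The called share was 45.5% of 11 cyclin and CDK genes, 60% of 10 turnover genes and 30% of 20 S-phase genes. It was 27.3% of 11 RB and E2F genes, 18.5% of 27 regulators and 19.2% of 26 other p53 targets. The RB and E2F and S-phase shares were thus near that of all genes, and those of the regulators and p53 targets below it. E2f7, a repressor among the E2F factors, was lower in KO (log2 -1.38, adjusted p = 0.00449). Its means were 26.7 ± 21.8 CPM (WT) and 9.64 ± 7.59 CPM (KO), and the part of WT dox replicate 2 in them was not tested. Tbx2, a repressor of Cdkn2a and Cdkn1a, had means of 37.6 ± 16.4 CPM (WT) and 17.02 ± 10.0 CPM (KO) (adjusted p = 0.00463). Hmga2, known to repress the Cdkn2a locus, was at 381 ± 41.0 and 765 ± 81.7 CPM (adjusted p = 0.00359).

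**Figure D5:**
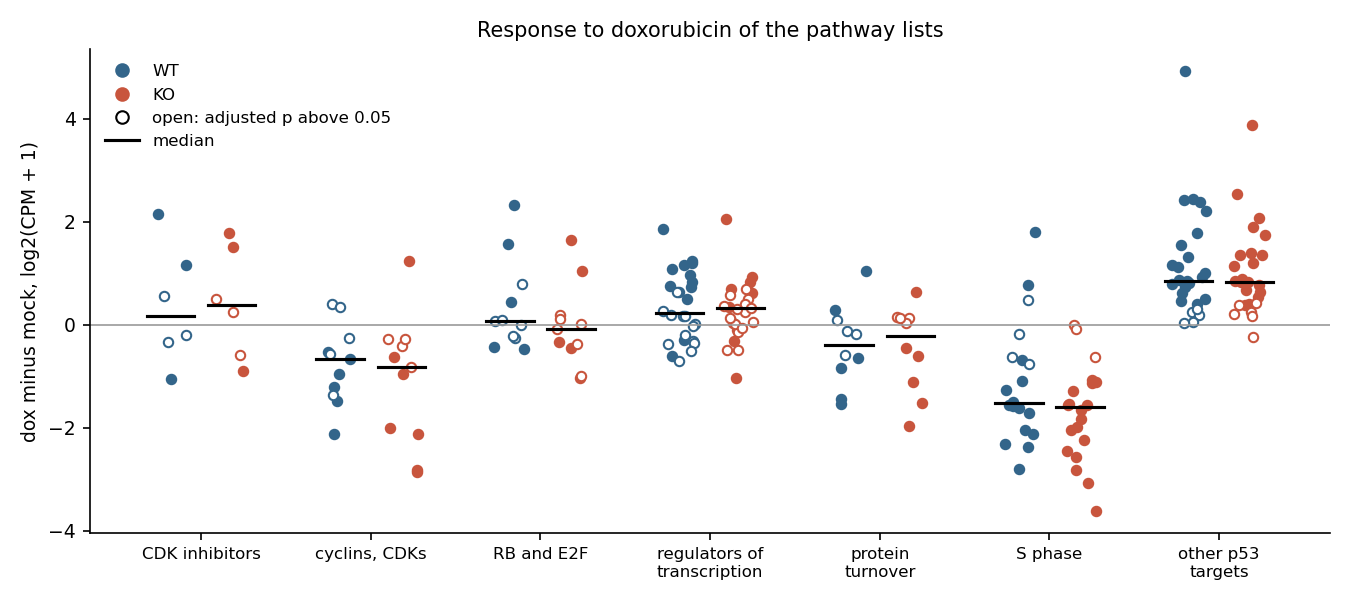
Response to doxorubicin (dox minus mock, log2(CPM + 1)) of the genes of each list in WT (blue) and KO (red), 1 point per gene, open where the adjusted p was above 0.05, with a bar at the list's median. The CDK inhibitors lie on both sides of 0, the S-phase genes are mostly below it (medians -1.53 and -1.61) and the other p53 targets mostly above it (0.85 and 0.84).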

How the data were processed

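RNA was measured by sequencing of polyadenylated RNA in 12 libraries, 3 in each of 4 groups, made with a stranded mRNA kit per the labels' protocols. Per the submitters' processing notes, the assembly was NCBIM37 and the tools included TopHat2 2.0.6, edgeR and HTSeq, without the role of each. The authors deposited CPM values per gene in 2 tables, 1 for mock (10648 genes) and 1 for dox (11125 genes), with 10292 genes in both. In each library 100% of the deposited CPM values were whole multiples of 1 read within 0.001 read, which gave the library totals.

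The linear models of limma 3.58.1 (R 4.3.3, moderated with a trend) were fitted to log2(CPM + 1), a scale that understates changes of low genes, with Benjamini-Hochberg adjustment over all genes of a fit and a threshold of 0.05. A filter at a mean of 1 CPM removed 0 genes. KO and WT were compared within each table. Dox against mock and the interaction came from 1 fit of the 4 groups over the genes in both tables, so they share libraries. Ratios and levels per library are plain CPM. P-values without a block rest on the spread between the 3 libraries of a group, and the fit of the 4 groups shares 1 estimate of it. With the block, the effect of the replicate number is first taken out of that spread. Beyond the 6 genes, up to 4 called genes with the largest change were named from each of 6 lists (with the block where none was called without it), and Trp53, Mdm2, Ccnd1, Cdk2, Cdk4, Cdk6, Rb1 and Skp2 could always be named. The members, lists and tests were chosen with earlier results of these data known.

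WT and KO share replicate numbers. Same-numbered libraries deviated together from their group means, with correlations across genes of 0.710 to 0.855 between WT and KO in mock, 0.669 to 0.800 in dox, and 0.394 to 0.728 between treatments of a genotype, so the numbers were taken to pair the libraries, although the labels leave their meaning unstated. A fit with the number as a block was the alternative, and a block for each genotype was another for the dox comparisons. Other alternatives were a pseudocount of 0.5 or 0.1 CPM, no filter, a minimum of 5 CPM, quantile normalization, median centring, fits of 2 groups and leaving out each library. Count tests on recovered reads were planned and not run, so all tests are on the deposited CPM. The code was tested on simulated data. Promoters are from RefSeq (GRCm38.p6) and exon lengths from GENCODE M21.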

Additional observations from a re-analysis of the deposited data

How the results depend on the processing

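The 6 genes kept their direction and their side of the threshold in all 192 results under the pseudocounts, filters, quantile normalization, median centring and fits of 2 groups. Among these, the results with no filter could not differ, since the main filter removed 0 genes and that fit is the same. With a block, by number in 5 comparisons or by number within each genotype in 3, 41 of 48 results did so and 7 became calls, all with the block by number, named in the report, and the pairing changed no other call of the 6 genes. For Cdkn1a, KO against WT in mock was -0.85 (adjusted p = 0.0223) with the block, and -0.88 to -0.81 (adjusted p = 0.000181 to 0.175) with the block and each pair left out. Over all genes the block raised the calls from 0 to 98 in mock and to 2820 in dox (KO against WT), and from 3552 to 5524 for dox in KO. Without pair 1, 2 or 3 the blocked counts were 4, 0 and 2438 in mock and 692, 2590 and 1560 in dox. With the block, leaving out a pair also made calls of Cdkn2b in mock (KO against WT, without pair 3, -0.32, adjusted p = 0.0368) and of Cdkn2c for dox in WT (without pair 1, 0.91, adjusted p = 0.0124) and in KO (without pair 2, -0.74, adjusted p = 0.0389). It ended the blocked calls of Cdkn2a for dox in WT (without pair 2 or 3, adjusted p = 0.426 and 0.111) and of Cdkn2b for dox in KO (without pair 1 or 3, 0.171 and 0.167).

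With each library left out in turn, the 5 differences of Cdkn1a kept their direction and side without the block, at -0.94 to -0.77 (KO against WT, mock), -0.32 to -0.11 (dox), 1.05 to 1.25 (dox against mock, WT), 1.71 to 1.87 (KO) and 0.53 to 0.73 (interaction). Reversed signs occurred only in differences that had not passed in the same fit. Of these, that of Cdkn2a for dox in WT passed with the block, where it kept its sign (-0.51 to -0.16). The ranges without the block were -0.40 to 0.25 (Cdkn1c) and -0.43 to 0.38 (Cdkn2a, -0.11 to 0.065 with the block) for KO against WT in mock. For dox in WT they were -0.75 to 0.065 (Cdkn2a) and -0.45 to 0.12 (Cdkn2b, -0.40 to 0.18 with the block). They were -0.065 to 0.65 (Cdkn2a) for dox in KO and -0.11 to 0.39 (Cdkn1b) for the interaction. The cause was not tested. The number of libraries, 3 in a group, limits all of these values, and the count tests were not run.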
